A study of Rattus norvegicus with 6 samples.

Results

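The receptors for the neurotrophins and for the ligands of the glial cell line-derived neurotrophic factor (GDNF) family were examined for DNA methylation in rat dorsal root ganglia after nerve injury. The set holds 8 genes: Ntrk2, Ntrk3 and Ngfr on the neurotrophin side, and Ret, Gfra1, Gfra2, Gfra3 and Gfra4 on the GDNF side. A CpG site belonged to a gene where that gene's RefSeq transcript had the nearest start in the authors' deposited table, which gave 91 of its 32674 nuclear sites. To these were added 192 sites that lay within 2 kb of one of the 91 and had 10 or more reads in all 6 libraries. The groups were SNL, in which the L5 and L6 spinal nerves on the left were tied off (n = 3 libraries), and Sham, an operation on the opposite side without a ligature (n = 3 libraries). All 6 libraries came from adult male Sprague-Dawley rats, were taken 3 weeks after surgery and were made by reduced representation bisulfite sequencing (RRBS), which reads DNA fragments cut at MspI sites. The methylation level of a site is the percent of its reads that kept a cytosine at the CpG.

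Neurotrophins and GDNF family ligands are secreted by the targets of sensory axons and by glia, and they maintain the survival, growth and phenotype of different classes of sensory neurons. Neurotrophins act through Trk receptor tyrosine kinases and through the shared receptor p75, encoded by Ngfr. GDNF family ligands bind a GFRα co-receptor held on the membrane by a lipid anchor, and the complex activates the kinase Ret. In ganglia after nerve injury these receptors are studied because the loss of contact with the target changes the supply of their ligands.

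Whether the libraries of a group stem from separate animals is not stated in the labels, and since Sham was done on the opposite side, an SNL and a Sham library could come from the same rat. Every p-value rests on how far these 6 libraries scatter, and that scatter can be technical. The summed coverage was 29420922 to 34293779 reads in SNL libraries and 27247702 to 32243538 reads in Sham libraries. RRBS gives no transcript levels, so the labelled tissue was not checked against expressed markers. In whole ganglia a shift in the makeup of neurons and glia and a change of methylation within 1 cell type cannot be told apart.

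At 91 receptor sites, 2 differed between SNL and Sham ganglia: 1 site downstream of Gfra1 was less methylated and 1 site in an Ntrk2 intron was more methylated after ligation. The Gfra1 site stood at 66.2% ± 2.8 in SNL and 75.7% ± 2.1 in Sham ganglia, and the Ntrk2 site at 86.6% ± 0.92 in SNL and 81.6% ± 3.0 in Sham ganglia (SD, n = 3 each). Neither lay near a transcript start, and none of the 7 sites within 1 kb of a receptor gene's start passed the test. These 7 were promoter sites, and of all 2387 annotated promoter sites 20 passed. The absence of calls among 7 sites is therefore not read as a result. Each site was tested by a logistic regression of methylated and unmethylated reads on group with a moderated overdispersion, and p-values were adjusted by Benjamini-Hochberg over all annotated sites at 0.05. In this test 1.42% of all annotated sites were called, so 2 of 91 is a share near that background. Neither call held in limma on logit values (adjusted p = 0.371 for Gfra1 and 0.459 for Ntrk2) or in the F test without moderation (0.805 for both). Those fits called no annotated site, with 3480 sites in limma and 1968 in the F test at an unadjusted p under 0.05.

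The 91 sites were spread unevenly over the 8 genes. Ntrk2 had 36 sites, Gfra1 20, Ntrk3 12, Ngfr 11, Gfra2 and Gfra4 4 each, and Gfra3 and Ret 2 each. Most lay far from the start of the gene for which they are named. The median distance to the start was 180 kb, 52 sites were over 100 kb away and 7 within 1 kb. The table placed 7 sites in a promoter, all of them also in the shore of a CpG island, 34 in an intron outside promoters, and none in an exon or an island. A flag can refer to another transcript than the named one. Another 50 sites, 54.9% of the set, carried none of the table's flags, against 58.5% of all annotated sites. In Sham ganglia 60 of the 91 sites (65.9%) were methylated above 80%, against 54.6% of all annotated sites, and 7 sites were below 20%. The set as a whole is therefore mainly methylated DNA far from the named starts, with a few sites that are low.

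**Figure D1:**
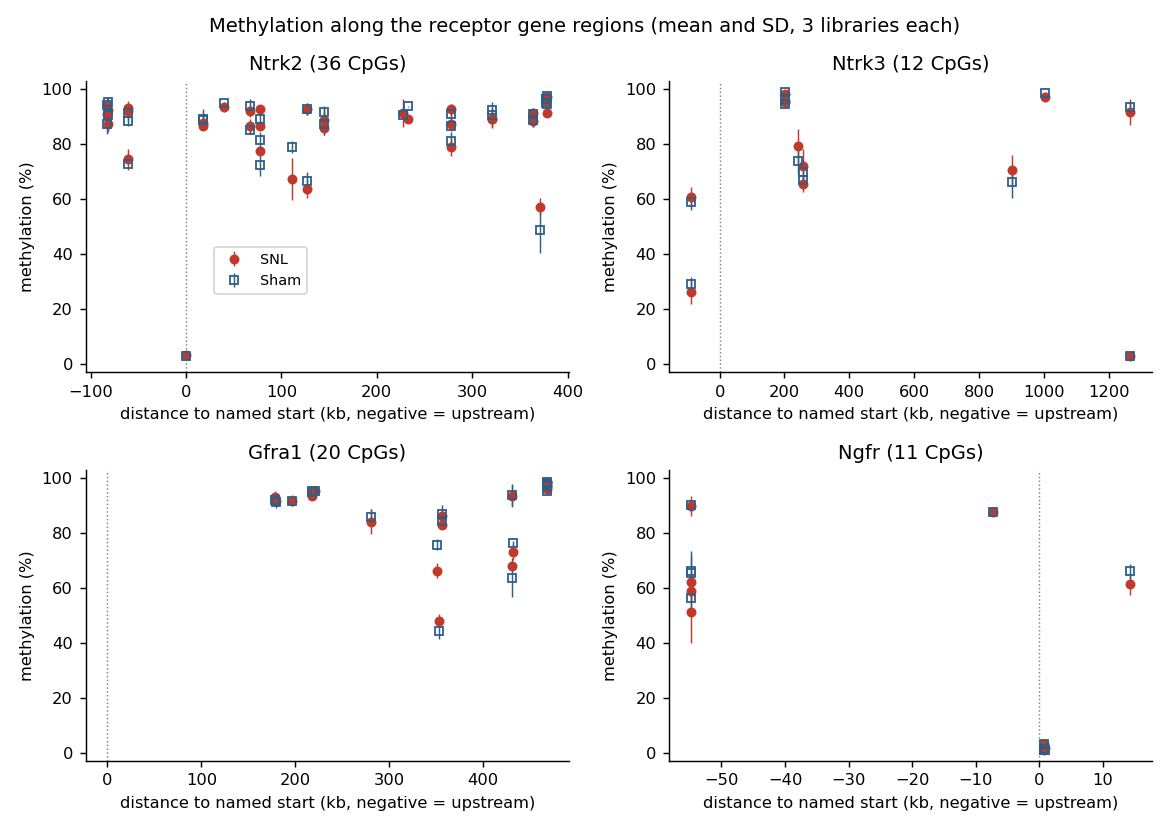
Mean methylation level (y axis, percent; points with SD bars, n = 3 libraries each) of the annotated CpGs of Ntrk2, Ntrk3, Gfra1 and Ngfr against the distance to the named start (x axis, kb, negative upstream), with SNL as filled circles and Sham as open squares. The CpGs at the Ntrk2 and Ngfr starts and 1 distant Ntrk3 CpG lie near 0% in both groups, most others lie above 60%, and at most positions the SNL and Sham symbols overlap.

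Across the set, SNL and Sham ganglia were close. The median site level was 88.1% in SNL and 88.7% in Sham ganglia, and the median SD between libraries was 1.9 points in SNL and 1.8 points in Sham. The median difference, SNL minus Sham, was -0.14 percentage points over the 91 sites and -0.55 points over all annotated sites. The difference was negative at 52 sites and positive at 37 (57.1% negative, against 61.2% of all annotated sites). At an unadjusted p under 0.05 there were 11 sites, or 12.1%, against 13.1% of all annotated sites. The SNL and Sham libraries did not overlap at 10 sites, 5 lower and 5 higher in SNL, while 17.8% of all annotated sites had no overlap (13.2% lower and 4.64% higher). The authors' deposited table gave a q-value under 0.05 to 4 of the 91 sites and to 4.54% of all annotated sites.

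**Figure D2:**
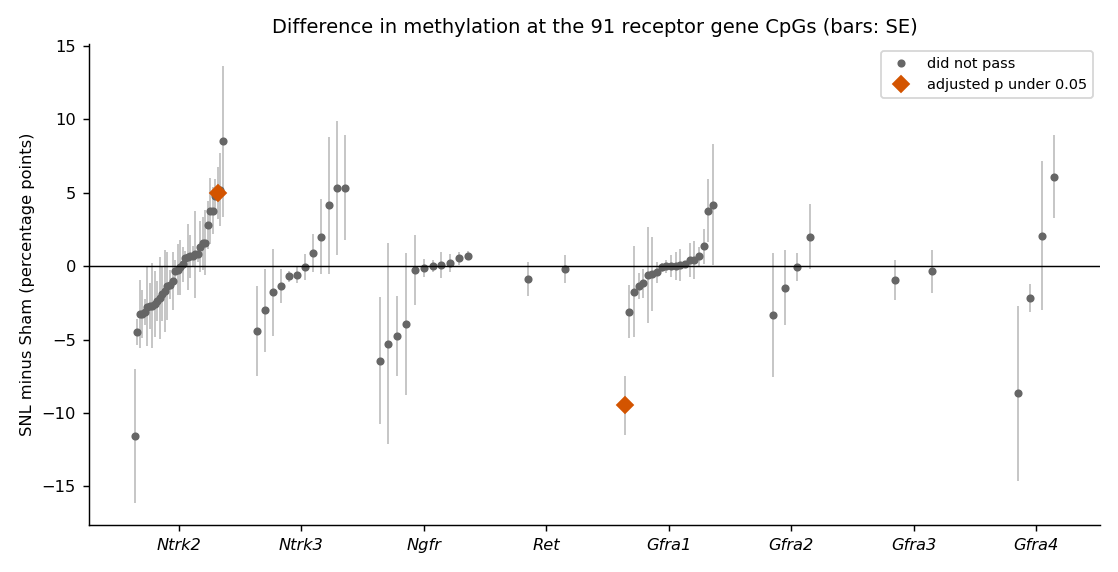
Difference in methylation level, SNL minus Sham (y axis, percentage points; bars are 1 SE), at each of the 91 receptor sites, ordered by size within each gene (x axis). Most differences lie close to 0, and the diamonds mark the 2 called sites, in Ntrk2 above 0 and in Gfra1 below 0.

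Ntrk2 encodes TrkB, the receptor of brain-derived neurotrophic factor, which also has a truncated form without the kinase that glia express. Of its 36 sites, 19 were lower and 17 higher in SNL, with differences between -11.58 and 8.51 points. In an intron on chromosome 17, 3 neighbouring CpGs, 78.0 kb downstream of the start of NM_012731, all had a higher mean in SNL, and the third passed the test. They lie within 7 bases, at chr17:11733640, 11733645 and 11733647 (rn4), and each had 1003 to 1244 reads per library. A single read can span them, so they are not independent observations.

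The called CpG at 11733647 had 87.0%, 87.2% and 85.5% in SNL 1 to 3, against 78.7%, 84.6% and 81.5% in Sham 1 to 3. All SNL libraries lay above all Sham libraries, and the Sham libraries were spread more widely. The difference was 4.99 points (SE 1.79, adjusted p = 0.0470). The CpG 2 bases before it had 92.8%, 93.2% and 92.8% in SNL against 87.0%, 92.3% and 88.3% in Sham, a difference of 3.79 points (SE 1.6, adjusted p = 0.0614). The first of the 3 had 76.2%, 79.3% and 77.5% in SNL against 68.6%, 76.6% and 72.2% in Sham, higher by 5.21 points (SE 2.48) with overlapping groups and adjusted p = 0.112. Leaving out 1 library moved that value to between 3.28 and 7.27 points. In every library the second CpG was the most and the first the least methylated.

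The call at 11733647 was close to the threshold. It was lost when any of SNL 1, SNL 2, SNL 3, Sham 1 or Sham 3 was left out (adjusted p = 0.0782, 0.147, 0.057, 0.219 and 0.182). It was also lost at a minimum of 200 reads (0.0719), with moderation over all sites (0.0582) and with the replicate number as a block (0.0708). Without Sham 2 all 3 CpGs passed, with adjusted p of 0.029, 0.00747 and 0.0166 in coordinate order. In the fit over all sites with 10 or more reads, all 3 CpGs passed, with adjusted p of 0.00336, 0.000514 and 0.000338. This fit uses the same reads at these CpGs and is not separate support. Since the counts at a CpG are the same in both fits, its unadjusted p differs between them only through the moderation. In the wider fit the moderation draws on far more sites, most with fewer reads. The unadjusted p of the called Gfra1 site was 3.23e-05 over annotated sites and 5.96e-10 in the wider fit. In all, 5 of the 91 receptor sites passed in the wider fit (1 lower and 4 higher in SNL). In that fit 0.399% of all sites passed, but most of them had fewer reads than the 91, which were chosen at 100 or more, so the shares are not set against each other. No site of that fit passed when the moderation also used sites without spread within a group (12464 at an unadjusted p under 0.05).

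The sites around these CpGs differed in both directions. A CpG at 11733773, 126 bases beyond the third, had 78.8%, 91.2% and 86.4% in SNL against 72.1%, 76.7% and 72.1% in Sham, 11.88 points higher with no overlap, at 57 or more reads (adjusted p = 0.482 in the fit over sites with 10 or more reads). A group of 4 CpGs 205 to 237 bases before the first, in the order of the coordinates, was 10.47 to 18.83 points higher on average at 12 or more reads, with adjusted p between 0.709 and 0.860. The sites 846 to 1533 bases beyond the third differed by -16.48 to 0.22 points. None of these passed.

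**Figure D3:**
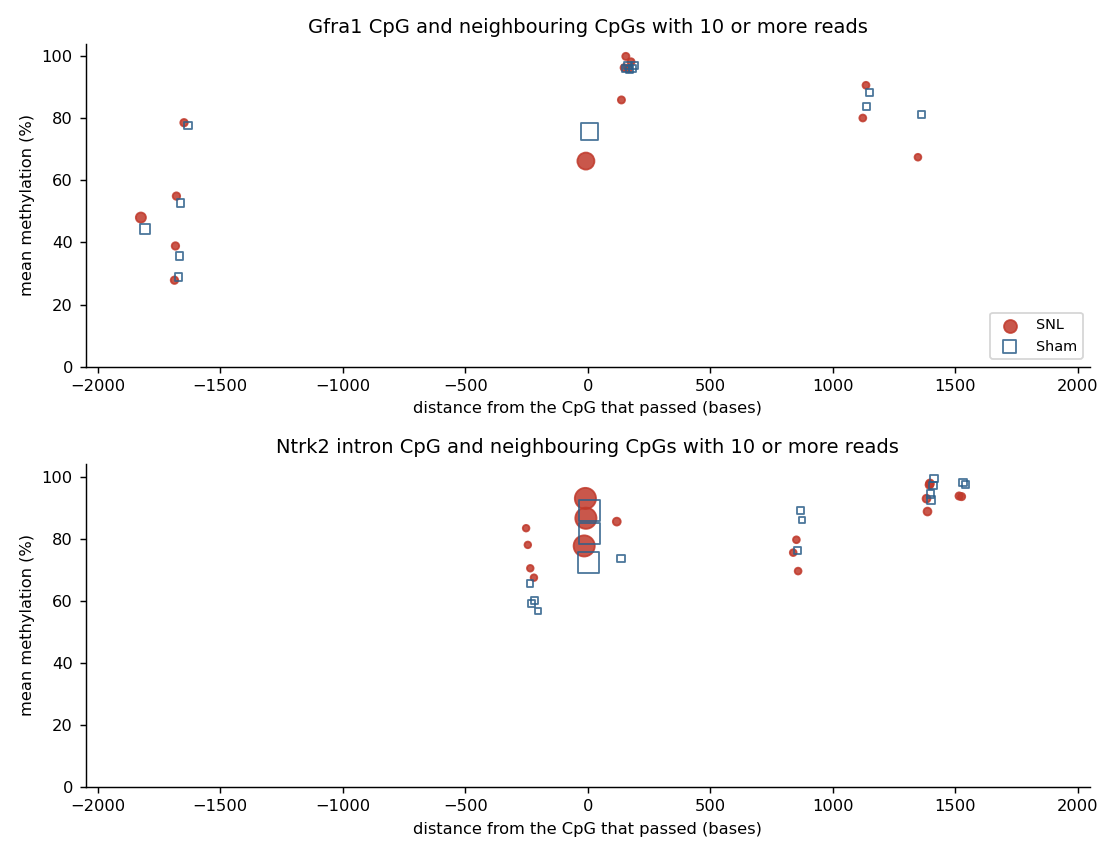
Mean methylation level (y axis, percent) at sites with 10 or more reads against the distance from the called Gfra1 site (upper panel) and the called Ntrk2 site (lower panel) in bases (x axis), with SNL as filled circles and Sham as open squares, set slightly apart sideways and larger where coverage is higher. Near the Ntrk2 site SNL lies above Sham within 250 bases and mostly below it further on, and near the Gfra1 site the sites differ in both directions.

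The groups did not overlap at 7 of the 36 Ntrk2 sites, the called one included, against 17.8% of all annotated sites. Those away from the 3 neighbouring CpGs did not pass the test. The largest difference of the gene was at chr17:11700754, in an intron 110.9 kb downstream, with 66.7%, 75.3% and 60.2% in SNL against 77.3%, 78.3% and 81.3% in Sham. The difference was -11.58 points with an SE of 4.56 (110 to 162 reads, adjusted p = 0.191), and the SNL libraries varied by more than the Sham libraries. At chr17:11578673, in an intron 233.0 kb downstream, SNL had 87.8%, 89.3% and 90.8%, against 94.1%, 93.5% and 93.7% in Sham, a difference of -4.47 points (SE 0.89, adjusted p = 0.119). At chr17:11872532, 60.9 kb upstream, SNL had 93.0%, 91.8% and 94.5%, against 89.96%, 88.2% and 86.9% in Sham, 4.78 points higher (adjusted p = 0.173). The authors' deposited table gave these last sites q-values of 0.0104 and 0.0238, so they differ in call between that table and the test used here. A site 370.6 kb downstream at chr17:11441063 had 60.05%, 57.9% and 54.0% in SNL against 42.7%, 58.3% and 45.4% in Sham. Its difference of 8.51 points (SE 5.14) came with overlapping groups and an adjusted p of 0.174, though it passed in the fit over sites with 10 or more reads (adjusted p = 0.0182).

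The Ntrk2 promoter was almost free of methylation in both groups. The promoter site at chr17:11812089, 0.4 kb upstream of the start of the transcript NM_001163168, had 2.84%, 2.70% and 4.55% in SNL against 3.46%, 2.29% and 2.31% in Sham (adjusted p = 0.746, 477 to 853 reads). Within 2 kb of it, 18 further sites had mean levels of 0 to 7.89% in SNL and 0 to 6.27% in Sham.

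**Figure D4:**
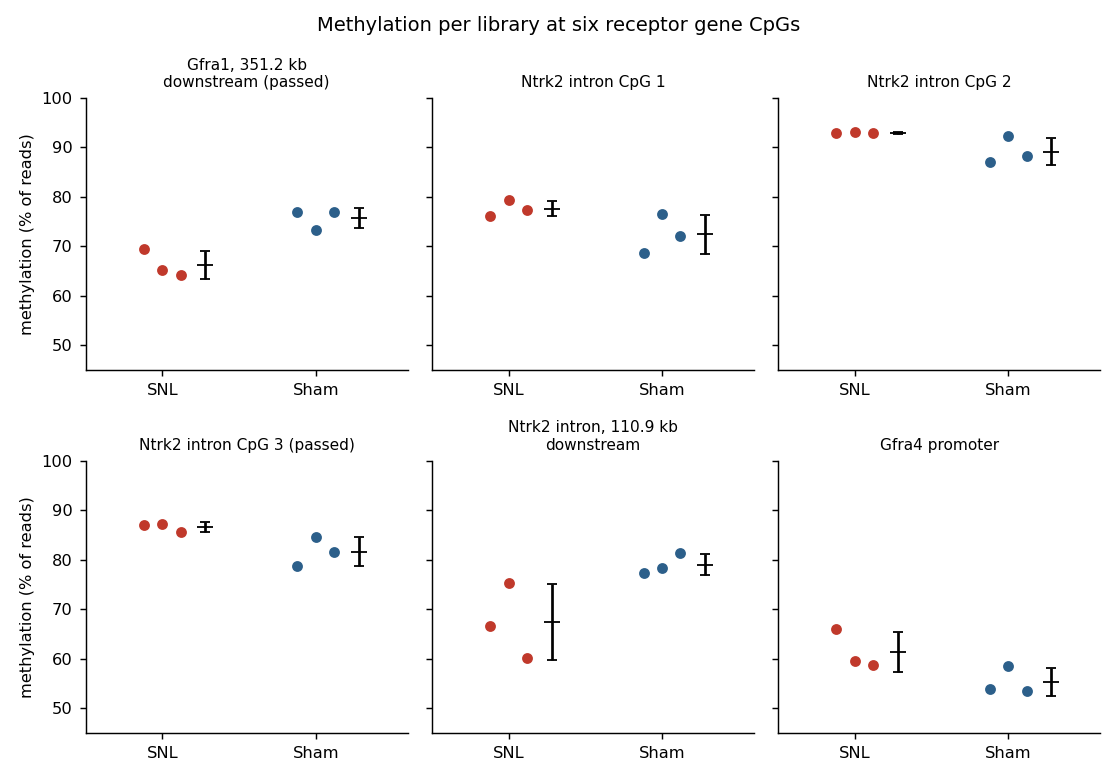
Methylation level (y axis, percent of reads, from 45 to 100) in each of the 3 SNL and 3 Sham libraries at 6 receptor sites, with the mean and SD beside the points. At the called Gfra1 site every SNL library lies below every Sham library, and at the third Ntrk2 intron CpG every SNL library lies above.

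Ntrk3 encodes TrkC, the receptor of neurotrophin 3, which marks proprioceptive neurons in the ganglion. None of its 12 sites passed, and their differences ranged from -4.42 to 5.34 points. The site with the lowest p, at chr1:134390765 and 88.6 kb upstream, had 30.5%, 25.5% and 22.2% in SNL against 26.4%, 31.4% and 29.3% in Sham. The groups overlapped, and the difference was -3.00 points with an SE of 2.83 (439 to 770 reads, adjusted p = 0.466). Leaving out 1 library moved it to between -5.24 (without SNL 1) and -1.05 points (without SNL 3). In both groups, levels changed sharply over short distances at some Ntrk3 CpGs and little at others, and the cause was not tested. The CpGs at chr1:134100697, 134100733 and 134100746 had mean levels of 95.53% to 98.45% in SNL and 94.62% to 99.14% in Sham. A CpG at chr1:133034642 had 2.92% ± 0.24 in SNL and 2.96% ± 1.5 in Sham, while the CpG 19 bases before it had 91.7% ± 4.8 in SNL and 93.4% ± 1.8 in Sham (SD, n = 3 each).

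Ngfr encodes p75, which binds all neurotrophins and is made by sensory neurons and by Schwann cells after injury. Of its 11 sites 5 lie in the promoter, where mean levels were 0.90% to 3.01% in SNL and 0.91% to 3.15% in Sham. These 5 CpGs lie 0.8 kb downstream of the start on chromosome 10, with 596 to 797 reads each. At chr10:84280209 the level was 1.49% in SNL and 0.96% in Sham, at 84280214 it was 1.49% in SNL and 1.26% in Sham, and at 84280223 it was 0.90% in SNL and 0.91% in Sham. At chr10:84280226 it was 1.62% in SNL and 0.91% in Sham. The libraries did not overlap there, but SNL 1 and Sham 1 were both at 1.26% after rounding. At 84280250 the level was 3.01% in SNL and 3.15% in Sham. The adjusted p of each of the 5 CpGs was 0.510 or more.

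The 6 annotated Ngfr sites outside the promoter had mean levels of 51.0% to 89.8% in SNL and 56.3% to 90.1% in Sham. The intron site with the lowest p of the gene, at chr10:84266691 and 14.3 kb downstream, had 65.6%, 58.0% and 60.2% in SNL against 63.4%, 68.6% and 66.0% in Sham. The groups overlapped, and the difference of -4.74 points (SE 2.73) had an adjusted p of 0.311 at 561 to 721 reads and lay between -6.91 and -3.09 points over the fits without 1 library. The lowest adjusted p of all 192 neighbouring sites, 0.364, was at chr10:84280367 beside the promoter CpGs. There 1.59%, 2.86% and 7.84% of reads were methylated in SNL, against 0% in each Sham library. This rests on 7 of 184 reads in SNL and on 0 of 178 reads in Sham, which allows a level of up to 1.69% for counting error only.

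Ret encodes the kinase that signals for all GDNF family ligands. Both of its annotated sites lie 97.1 kb upstream of the start, and no site downstream of it is listed under Ret. The site with the lower p, at chr4:154588197, had 95.2%, 93.6% and 96.0% in SNL against 94.2%, 95.9% and 97.3% in Sham (adjusted p = 0.829). The other site had 94.6% ± 1.5 in SNL and 94.8% ± 0.57 in Sham (SD, n = 3 each), and both had 338 to 437 reads. At these sites the level in both groups was close to full methylation.

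Gfra1 encodes the preferred co-receptor of GDNF. Its 20 sites lie 178.2 to 468.3 kb from the start, 6 of them in an intron and none in the promoter. The called site at chr1:264524283 is 351.2 kb downstream of the start of NM_012959 and carries no flag of the table. It had 69.4%, 65.2% and 64.2% in SNL against 76.9%, 73.3% and 76.9% in Sham, with 615 to 927 reads. The difference of -9.46 points (SE 2.01) had an adjusted p of 0.0077, and all 3 SNL libraries lay below all 3 Sham libraries. The authors' deposited table listed a q-value of 0.00021 for it. With Sham 3 left out the call was lost (adjusted p = 0.0783), while the difference stayed between -11.05 and -8.41 points over the 6 fits that each leave out 1 library.

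Sites near the called Gfra1 site did not all move with it. A CpG 145 bases beyond it had 87.5%, 91.4% and 78.9% in SNL against 94.1%, 96.7% and 97.1% in Sham, a difference of -10.02 points without overlap at 30 or more reads (adjusted p = 0.566 in the fit over sites with 10 or more reads). A CpG 163 bases beyond it had 100% in each SNL library against 97.1%, 93.3% and 97.1% in Sham. A site 1355 bases beyond it differed by -13.80 points at 17 or more reads, with adjusted p = 0.785. The nearest other annotated site, 1816 bases before it, stood at 48.0% ± 2.3 in SNL and 44.3% ± 2.9 in Sham (SD, n = 3 each), a difference of 3.78 points in the other direction.

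Gfra2 encodes the preferred co-receptor of neurturin. None of its 4 sites passed, and their differences ran from -3.32 to 2.00 points. The site with the lowest p, 548.3 kb downstream at chr15:51828117, had 77.9%, 74.3% and 72.9% in SNL against 72.0%, 76.2% and 70.8% in Sham (adjusted p = 0.726, 914 to 1247 reads). Gfra3 encodes the co-receptor of artemin, which in the ganglion is found mainly on nociceptors. Both of its sites lie in an intron 18.4 kb downstream, and the one with the lower p, at chr18:27177468, had 89.5%, 87.9% and 86.9% in SNL against 88.2%, 91.2% and 87.7% in Sham (adjusted p = 0.938, 114 to 160 reads). At both genes the groups overlapped.

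Gfra4 encodes the co-receptor of persephin. Only Ntrk2, Ngfr and Gfra4 had annotated promoter sites, and of these genes Gfra4 alone had one at an intermediate level. That site is at chr3:118714890 (rn4), 118 bases upstream of the start. Within 2 kb of it, 4 further sites had mean levels of 4.44% to 79.39% in SNL and 2.56% to 67.59% in Sham (11 to 34 reads). The promoter is shown because it carries the annotated site. RefSeq gives these 250 bases before the start at chr3:138710957-138711206 of the assembly GRCr8, minus strand, with the MspI recognition site CCGG in capitals.
Gfra4 promoter: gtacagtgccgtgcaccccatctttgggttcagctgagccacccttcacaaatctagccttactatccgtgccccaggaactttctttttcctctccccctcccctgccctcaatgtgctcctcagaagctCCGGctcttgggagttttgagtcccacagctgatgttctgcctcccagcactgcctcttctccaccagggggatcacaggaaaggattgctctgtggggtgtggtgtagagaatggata
The window holds 3 CpGs and a single CCGG, a palindrome that reads alike on both strands, and the CpG within it lies 118 bases before the start. That is the distance the authors' table gives for the measured site, though the builds differ and positions were not converted. CCGG occurs in 46.2% of the 33469 RefSeq promoter windows of this length.

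The Gfra4 promoter site had 66.0%, 59.6% and 58.6% in SNL against 53.8%, 58.6% and 53.5% in Sham. The SNL libraries all lay above the Sham libraries, the lowest of them by less than 0.1 points over the highest Sham library. The mean was 61.4% ± 4.0 in SNL and 55.3% ± 2.9 in Sham (SD, n = 3 each), a difference of 6.11 points (SE 2.85) that did not pass (adjusted p = 0.492, 128 to 212 reads) and was 3.81 points without SNL 1. Of the gene's 4 sites the lowest p was at chr3:118684671, in an intron 30.1 kb downstream, with 93.5%, 95.5% and 92.8% in SNL against 95.3%, 96.8% and 96.2% in Sham. That difference of -2.17 points (SE 0.93) came with overlapping groups and adjusted p = 0.283. One of the 2 sites 5.3 kb upstream had 42.7%, 55.2% and 37.9% in SNL against 50.8%, 51.1% and 59.9% in Sham, with an adjusted p of 0.423 and an SD of 8.9 points in SNL.

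When the reads of all annotated sites of a gene were summed, none of the 8 genes passed, while 0.536% of all 8016 genes did and 13.7% had an unadjusted p under 0.05, as did 1 of the 8. That gene was Gfra1, with 89.2%, 86.8% and 86.7% in SNL against 89.3%, 89.3% and 89.3% in Sham. Its SNL libraries lay below the Sham libraries, SNL 1 by less than 0.1 points, while 19.5% of all gene sums had no overlap. The difference was -1.71 points (SE 0.81, adjusted p = 0.315). Without SNL 1 it was -2.52 points and passed (adjusted p = 0.0489), and as a mean of site percentages, in which each site has equal weight, it was -0.37 points (adjusted p = 0.873). From high to low, the order of the genes in SNL ganglia was Ret at 94.8% ± 1.4, Gfra3 at 90.6% ± 1.3, Gfra1 at 87.6% ± 1.4, Ntrk2 at 83.9% ± 0.73, Gfra4 at 77.6% ± 3.7, Gfra2 at 77.3% ± 2.2, Ntrk3 at 70.8% ± 2.6 and Ngfr at 32.1% ± 1.2 (SD, n = 3 each). In Sham ganglia the order was the same, with 95.3% ± 1.0 for Ret, 91.3% ± 2.0 for Gfra3, 89.3% ± 0.02 for Gfra1, 83.1% ± 0.85 for Ntrk2, 78.7% ± 3.7 for Gfra4, 76.5% ± 2.4 for Gfra2, 69.9% ± 1.4 for Ntrk3 and 31.9% ± 3.4 for Ngfr. Gfra4 and Gfra2 stood within their spread of each other in both groups. These sums weigh whichever sites were sequenced, so the order reflects the position of the covered sites as well as the gene.

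**Figure D5:**
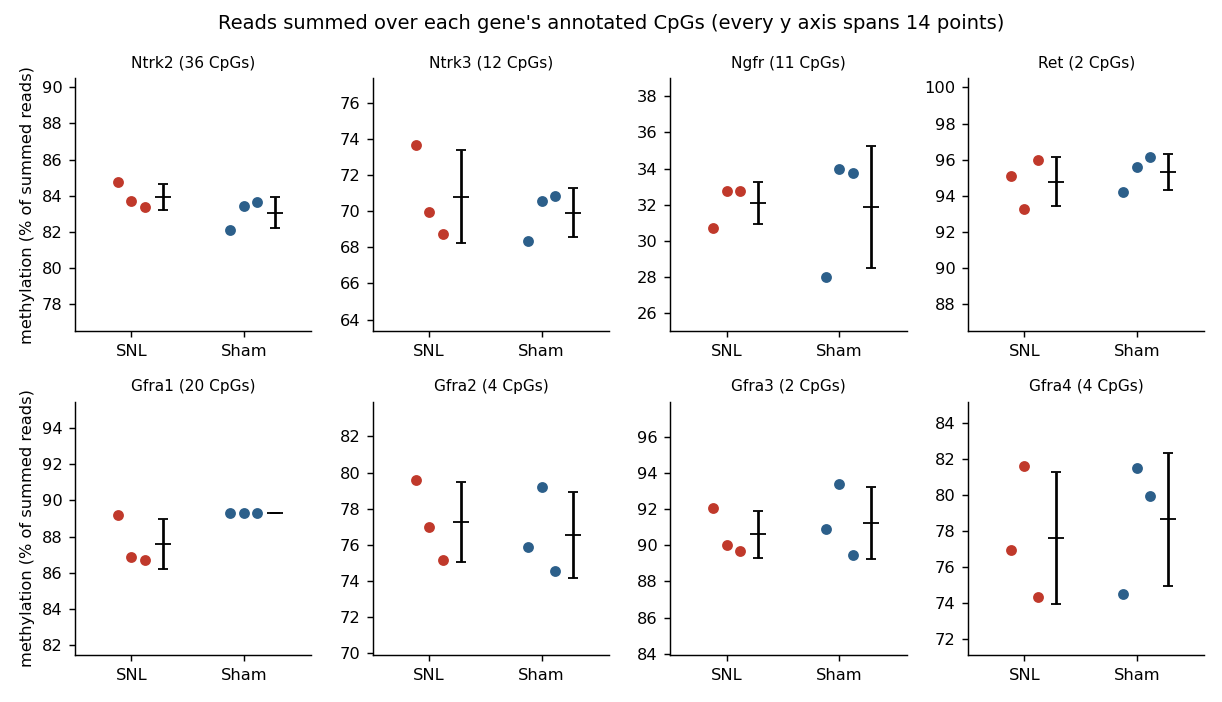
Methylation level of the summed reads of each receptor gene (y axis, percent, each panel spanning 14 points around its own level) in each SNL and Sham library, with the mean and SD beside the points. For every gene except Gfra1 the SNL and Sham libraries overlap, while 19.5% of all gene sums have no overlap. The 3 Sham libraries of Gfra1 lie almost on 1 level.

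The gene whose summed level was most like that of Ntrk2 in the 6 libraries, among 140 genes with 18 or more sites, was Gna12 with a root mean square difference of 0.77 points. Rars1 followed with 1.41 points and the transcript NM_001191052 with 1.42 points.

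Of the 192 neighbouring sites, none passed in the fit over sites with 10 or more reads, in which 0.399% of all sites did. At an unadjusted p under 0.05 there were 14, against 7.3% of all such sites, and none passed in the limma test or in the unmoderated F test either. The SNL and Sham libraries did not overlap at 20 of them (13 lower and 7 higher in SNL), against 10.2% of all such sites. The median difference was 0 points, and the median of the lowest coverage among the 6 libraries was 19 reads, so single sites could differ by several points without passing. The 91 sites fall into 50 fragments when sites within 50 bases are joined. Of these, 25 held more than 1 site, and 15 of the 25 differed in 1 direction throughout. Sites on 1 read are not independent, and the share over all annotated sites was not computed, so the count is not read as concordance.

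Other genes of the same pathways were taken from a list of 71 ligands, further receptors and signalling proteins, of which 39 had annotated sites. None of the 39 gene sums passed in either direction, against 0.536% of all gene sums. An unadjusted p under 0.05 was found for 7 of the 39, against 13.7% of all gene sums. The median difference was -0.53 points, against -0.79 points over all gene sums. The lowest adjusted p values were 0.123 for Shc4, an adaptor of Trk receptors (81.1% ± 1.2 in SNL and 67.6% ± 4.3 in Sham, 1 site), and 0.124 for Ncam1, which can serve as an alternative GDNF receptor (28.7% ± 2.1 in SNL and 23.7% ± 0.05 in Sham, 9 sites). Sorl1, a sorting receptor, followed with 0.128 (78.2% ± 1.1 in SNL and 82.1% ± 1.5 in Sham, 13 sites). With means of site percentages the Ncam1 difference was 1.12 points, against 5.02 from summed reads, and that of Sorl1 was -1.91 points, against -3.84. With sites within 100 kb alone the Sorl1 difference was 1.42 points, in the other direction. Dok5, a docking protein of Ret and Trk receptors, had 0.176 (83.8% ± 2.3 in SNL and 88.6% ± 2.2 in Sham) and the kinase Map2k2 had 0.238 (2.11% ± 0.17 in SNL and 1.21% ± 0.20 in Sham; SD, n = 3 each).

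At single sites, 6 of the 163 sites of these pathway genes were called. Sorl1 had 2 of them, 172.3 kb downstream of its start and 30 bases apart at chr8:44929524 and 44929554. The second had 74.4% ± 1.4 in SNL and 84.3% ± 0.32 in Sham (difference -9.94 points, adjusted p = 0.000147) and the first 62.8% ± 1.9 in SNL and 71.3% ± 1.1 in Sham (difference -8.60 points, adjusted p = 0.0032). Another 2, at chr1:255171228 and 255171263, lay 1108.3 kb from the start of Sorcs1, a related sorting receptor. They had differences of -4.89 and -6.55 points (adjusted p = 0.0271 and 0.0373). The site 52.9 kb upstream of Artn, the ligand of GFRα3, carries an intron flag. It had 38.7% ± 10 in SNL and 54.1% ± 4.2 in Sham (SD, n = 3 each). The difference was -15.41 points with overlapping groups (adjusted p = 0.0442). With reads summed over the 11 Artn sites the difference was 1.04 points, in the other direction (adjusted p = 0.976). The single Shc4 site, in an intron, was 13.54 points higher in SNL (adjusted p = 0.0213). The Sorl1 pair kept both calls in each of the 6 fits that leave out 1 library, with adjusted p up to 0.0326 at the first and 0.00256 at the second. The Sorcs1 sites kept the call in 3 and in 1 of these fits, Shc4 in 2 and Artn in 1, with adjusted p up to 0.155, 0.202, 0.104 and 0.221. Library offsets ended the call of the second Sorcs1 site (0.0622), and a minimum of 200 reads (0.075) and moderation over all sites (0.057) that of Artn. With the replicate number as a block, the calls of Shc4 (0.0598) and of both Sorcs1 sites (0.0714 and 0.0775) were lost. The 2 Sorl1 sites can share a read, and so can the 2 Sorcs1 sites, so the 6 sites are not independent observations. Of the 6 sites 5 were lower in SNL, and among all annotated sites 1.24% were called lower and 0.181% higher. That is 405 sites lower and 59 higher, against 302 lower and 114 higher in a fit with library offsets, which remove a shift of a whole library.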

How the data were processed

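The members and the gene lists were chosen with earlier results of these data known. Per the labels, DNA was cut with MspI, bisulfite converted and sequenced as single reads, and per the submitters' processing notes the authors aligned the reads with Bismark 0.18.1 and Bowtie2 and used methylKit 1.3.3. The notes name the build rn4, used here for coordinates, while the protocol text names a human assembly. Per the file headers, each deposited library file holds, for every CpG cytosine, its coverage (a count of reads) and what percent of them showed C or T. The authors' deposited series table holds the percent methylation of sites with 100 or more reads in each library, their p-value and q-value, feature flags, and, as signed scores, the difference in percentage points and the distance to the nearest transcript start. How the authors' test was set up is not given in the sources used here.

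Methylated reads were computed as coverage times the percent of C. Transcripts were matched by accession to a RefSeq gene table (GRCr8, names only; 7627 of 8123 matched), and no position was converted between builds. A group effect was fitted per feature by quasi-binomial logistic regression in R 4.3.3, with the overdispersion over 4 residual degrees of freedom moderated by squeezeVar of limma 3.58.1 and kept at 1 or above. P-values of the F test (two-sided) were adjusted with Benjamini-Hochberg over 32674 annotated sites, 424646 sites with 10 or more reads in all 6 libraries, or 8016 gene sums. The prior was estimated without features that had no spread within either group, and the fit was tested on simulated data. The SE is that of the difference of group means of the percent per library. A site with 100 to 1367 reads has a 95% Wilson interval 1.0 to 17.5 points wide in 1 library, which covers counting error only because PCR copies are not separate molecules. Mitochondrial sites were left out, and strand is not recorded, so both strands of a CpG can be listed.

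Sites given in full are the called ones, the one with the lowest p of each gene and those in promoters. The other Ntrk2 and Ntrk3 sites, the Gfra4 site 5.3 kb upstream and the sites around the called ones were chosen after their values were seen. Of the pathway list, the 5 genes with the lowest p and all called sites are named. The alternatives were other coverage limits, a coverage cap, library offsets, the replicate number as a block, no moderation, limma on logit values with a pseudocount of 1 or 0.5, other gene sums and leaving out each library. A prior estimated over all features was added after the data were seen.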

Additional observations from a re-analysis of the deposited data

How the results depend on the processing

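Of the 2 called receptor sites, the fit with the replicate block kept 1 (Gfra1; Ntrk2 11733647 had adjusted p = 0.0708), as did the prior over all features (1) and a minimum of 200 reads (1 of 44 sites tested). Without moderation the F test called 0 (4 at an unadjusted p under 0.05), and 0 were called with limma and either pseudocount (9 each). Leaving out 1 library gave 0 to 5 called receptor sites and 0 to 1 called receptor gene sums (Gfra1 without SNL 1). Library offsets kept both and added Ntrk2 11733645 (0.0308), 3 in all. No alternative called a neighbouring site, also within 500 bases. The labels do not say whether same-numbered libraries are paired, so the block is given as an alternative only. Deviations of same-numbered SNL and Sham libraries had correlations of -0.0546, 0.256 and -0.135. The highest correlation, 0.341, was between SNL 3 and Sham 1. These deviations are taken from means of 3 libraries a group, so the correlations cannot exclude pairing. Beside the Ntrk2 site, the block ended the calls of Shc4 (0.0598) and of both Sorcs1 sites (0.0714 and 0.0775).

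Over all annotated sites 464 were called, against 258 with the block, 240 at 200 reads, with the unmoderated F test 0 (1968 at an unadjusted p under 0.05) and limma 0 and 0 (3480 and 3437), and on leaving out a library 129 to 547. Library offsets moved the split to 302 lower and 114 higher, against 405 and 59. Over sites with 10 or more reads 1693 were called, and the block, the F test, the prior over all features and both limma fits each called 0 (10736, 7226, 12464, 26436 and 25949 at an unadjusted p under 0.05), a minimum of 30 reads 947, and fits without 1 library 647 to 1542. Offsets gave 972 lower and 473 higher, against 1339 and 354. Among gene sums 43 were called, against 10 with the block, 0 with the F test (695), 6 and 5 with limma, 24 with means of site percentages and 3 to 74 without 1 library. These are counts from separate fits and do not say which features were shared.

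The sign of the fitted effect turned only where the adjusted p was 0.396 or more. The adjusted p of the Ngfr promoter sites that turned was 0.984 and 0.981 in limma (84280214) and 0.988 with offsets (84280223), and over fits without 1 library it was 0.601 to 0.942 (84280214), 0.772 to 0.971 (84280223) and 0.809 to 0.997 (84280250). For Gfra3 27177468 it was 0.87 to 0.994 over such fits. Gene sums turned in them at Gfra2 (0.673 to 0.976), Gfra3 (0.798 to 0.997), Gfra4 (0.579 to 0.999), Ngfr (0.396 to 0.993), Ntrk3 (0.774 to 0.996) and Ret (0.673 to 0.994). With means of site percentages they turned at Gfra2 (0.898), Ngfr (0.651) and Ntrk2 (0.949), and with sites within 100 kb at Gfra2 (0.939), Ntrk3 (0.872) and Sorl1 (0.72). The cause was not tested. Over the named sites and sums, 415 values kept the sign of the fitted effect and the side of the threshold, 56 lost the call, 4 gained it and 24 turned. The difference of group means can change sign where the fitted effect does not, as for the Ngfr sum without SNL 2 (-0.16 points, against 0.19). With 3 libraries a group and 10 to 100 reads, differences of a few points at single sites could go undetected, and the power was not computed.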
